A study of Rattus norvegicus with 16 samples.

Results

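The genes described here are the cytochrome P450 genes of families 1 to 4 in the liver of ageing male Lewis rats. They were taken as every gene whose array name begins with Cyp, a family number from 1 to 4, a subfamily letter and a number, on spots that are not controls. This gave 53 genes on 66 probes, of 35119 genes on 41012 probes on the array. Of the 53 genes, 48 had a probe that the scanner software called well above background throughout 1 age or more, and were tested with 21478 genes in all, and 42 of those were above background on all 16 arrays. The genes fell into 3 of family 1, 32 of family 2, 5 of family 3 and 13 of family 4.

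Liver was collected from male Lewis rats, an inbred strain, at 3, 9, 12, 18 and 24 months of age. The labels name no engineered allele and no agent for any age, and all animals were kept free of specific pathogens under a 12-hour light and dark cycle, and had food and water freely available. Messenger RNA was measured on one-colour Agilent rat arrays, with 3 arrays at each of 3, 9, 12 and 18 months and 4 at 24 months. Arrays are called by the number in their title, which runs 2, 3 and 4 at 12 months and 1, 3 and 4 at 18 months. All animals were male, no age had a treated group, and neither the hour of collection nor whether each array holds a separate animal is stated, so p-values measure the spread between these arrays, which may be in part technical.

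Cytochrome P450 enzymes of these families sit in the membrane of the endoplasmic reticulum, bind haem and use electrons passed from NADPH by cytochrome P450 reductase (Por) to insert oxygen into their substrates. Families 1 to 3 oxidise drugs, other foreign compounds and steroids, and family 4 hydroxylates fatty acids at the end of the chain. Several are known for induction through receptors, Cyp1 through the aryl hydrocarbon receptor, Cyp2b through CAR, Cyp3a through PXR and Cyp4a through PPARA, and in rat liver a group of them is set to a male or a female level by the pattern of growth hormone secretion.

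Each value below is a log2 level, the base-2 logarithm of a probe's signal minus the 75th percentile of its array, so that 0 is the 75th percentile and 1 unit is a 2-fold difference. A level is compared only with the same probe on other arrays. The 75th percentile of the signal ran from 171 to 412 intensity units, 52.5% to 65.2% of probes were well above background per array, no probe of these genes was saturated on any array, and arrays correlated with others of their age at 0.962 to 0.994. The labelled tissue was checked against its markers: all 9 hepatocyte markers were above background on every array, with a mean level of 8.09 to 8.64, and none of 4 kidney markers was measured well enough to test. Array 4 at 24 months had the fewest probes above background. The headers place all 24-month arrays on a scan day of their own and on slides 5 to 7, with no other age, so age and scan day cannot be told apart in any comparison with 24 months.

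Levels differed over the ages for 19 of the 48 tested genes (limma's moderated F test over the 5 ages, Benjamini-Hochberg adjusted p below 0.05), or 39.6%, beside 37.4% of all 21478 genes. The share is near that of all genes. The range between the highest and the lowest age mean had a median of 1 log2 unit over the 48 genes and 0.69 over all genes. By family, 1 of 2 tested genes in family 1, 10 of 29 in family 2, 3 of 5 in family 3 and 5 of 12 in family 4 passed.

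The comparison of the oldest with the youngest livers gave 9 genes lower at 24 than at 3 months and 0 higher, where 9.07% of all genes were called lower and 4.24% higher (13.3% together). The 9 were Cyp2b3, Cyp2c7, Cyp2c13, Cyp2c79, Cyp2j3, Cyp2s1, Cyp2w1, Cyp3a9 and Cyp4f39. The 6 measured on both sides were 1.79 to 3-fold lower, and Cyp2s1, Cyp2w1 and Cyp4f39 were not well above background at 24 months. Cyp2w1 was not at 3 months either, and the bound for Cyp4f39 lay under 1-fold, so no fold is given for Cyp2w1 or Cyp4f39. At an unadjusted p under 0.05 in limma there were 13 lower and 6 higher, beside 16.5% and 10.3% of all genes. The median difference was -0.27 for the 48 genes and -0.04 for all genes. Without array 4 at 24 months 15 genes were called, 12 lower and 3 higher, and without array 2 at 3 months 5 were called. Without arrays 3 and 4 at 24 months 12 were called, of which 5 were higher (Cyp1a1, Cyp2c12, Cyp2j4, Cyp4a1 and Cyp4f5), and without array 3 alone 10 were called, of which 2 were higher (Cyp2c12 and Cyp4f5). With the slide as a random block 1 of the 9 was called (Cyp2s1), and under normexp background correction 1 (Cyp3a9). Calls among all genes were 3357 without array 4 at 24 months and 1571 without array 2 at 3 months. They were 3221 without arrays 3 and 4 at 24 months, 3132 without array 3, 311 with the slide block and 483 under normexp.

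Between successive ages the calls were few until the last step. From 3 to 9 months 1 gene fell (Cyp3a62) and 0 rose, where 3.2% of all genes were called lower and 1.94% higher; at an unadjusted p under 0.05 in limma 3 were lower and 4 higher, beside 9.23% and 8.89% of all genes. From 9 to 12 months 3 genes fell (Cyp2t1, Cyp3a9 and Cyp4f39) and 0 rose, beside 3.1% and 3.18% of all genes, with 8 lower and 1 higher at an unadjusted p under 0.05 in limma, where 11.4% and 11.5% of all genes were. From 12 to 18 months limma called 0 genes, where it called 1.39% of all genes (0.317% lower and 1.07% higher); at an unadjusted p under 0.05, 14 of the 48 were higher and 0 lower, where 8.1% of all genes were higher and 10.2% lower. From 18 to 24 months 7 genes fell (Cyp2c6v1, Cyp2c13, Cyp2c79, Cyp2j3, Cyp2s1, Cyp2w1 and Cyp4a3) and 2 rose (Cyp3a62 and Cyp4f5), where 15% of all genes were called lower and 10.8% higher (25.8% together). The medians over the 48 genes for these 4 steps were -0.02, -0.29, 0.22 and -0.23, and over all genes 0.04, -0.01, -0.06 and 0.05. Slide 1 holds 1 array at 9 months and slide 2 only array 2 at 12 months, so fits within them describe single arrays. Their counts are listed only with the other settings and are not read as differences between ages. Array 2 at 12 months was the lowest of the 16 for 13 of the 48 genes. Over all arrays with the slide as a random block 3 of the 48 were called from 3 to 9 months and 12 from 9 to 12 months. Among all 21478 genes 2053 and 4828 were. Within the scan session that holds arrays 3 and 4 at 12 months and the 18-month arrays, Cyp2b2 and Cyp2b12 were called higher at 18 months, where 179 of all genes were called. The 18 to 24 month count was 3 with the slide as a random block, 3 with the scan session (the calendar year in the header's scan time, of which there were 2) as one and 3 under normexp correction. Among all genes these settings called 971, 1719 and 974. The genes still called were Cyp2c79, Cyp2s1 and Cyp2w1 with the slide, Cyp2s1, Cyp2w1 and Cyp3a62 with the scan session, and Cyp2c79, Cyp4a3 and Cyp4f5 under normexp.

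**Figure D1:**
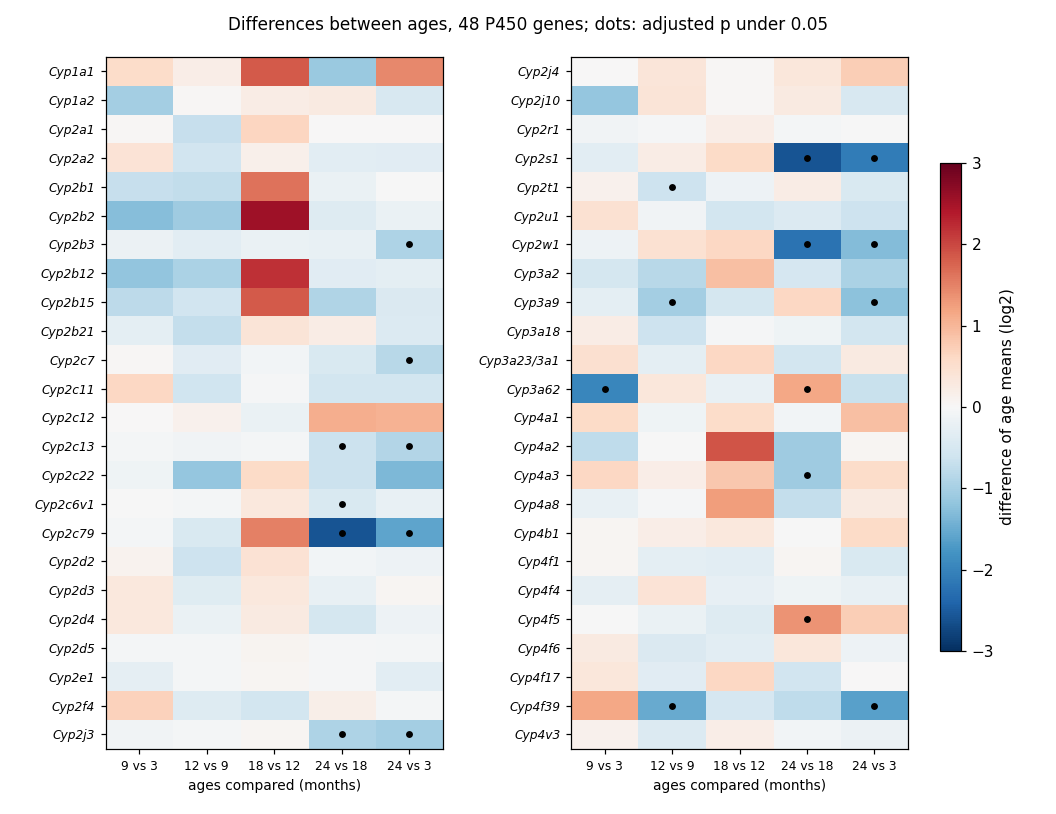
Log2 differences of the 48 tested genes (rows) for the 4 steps between successive ages and for 24 against 3 months (columns), from blue (lower at the older age) to red (higher), with a dot on each called difference. The called genes of the 24 against 3 months column are all lower, and the 12 to 18 month column holds no call.

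The spread of these genes was largest at 12 and 24 months. All arrays at 3 months lie on slide 1 and all at 18 months on slide 4. Those at 9 months lie on slides 1 and 2. Those at 12 months lie on slides 2 and 3, scanned in different sessions, and those at 24 months on slides 5 to 7. At 12 and 24 months spread between samples and differences between slides therefore cannot be told apart. The median SD within an age was 0.119 at 3, 0.141 at 9, 0.421 at 12, 0.196 at 18 and 0.523 at 24 months, beside 0.102, 0.175, 0.329, 0.151 and 0.302 for all genes. Single arrays held many of the extremes. Array 3 at 24 months was the lowest of the 16 for 18 of the 48 genes (37.5%, against 15.5% of all genes), and array 2 at 12 months was the lowest for 13 (27.1%, against 14.2%). Array 1 at 24 months was the highest for 9 (18.8%, against 6.93%).

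Markers of other cells moved with age as well. The mean of 7 Kupffer cell and macrophage markers, all tested, lay at 2.09 to 2.94 at 24 months and at 1.36 to 1.46, 1.84 to 2.07, 1.65 to 1.95 and 1.70 to 1.96 at 3, 9, 12 and 18 months. The mean of 6 T and NK cell markers was -0.94 to 0.52 at 24 months, -1.11 to -0.91 at 3 months and -3.11 to -1.25 at the 3 ages between. The 6 endothelial markers averaged 0.14 to 0.71 at 24 months and -0.24 to 0.18 before. The hepatocyte mean was 8.09 on array 3 at 24 months, its lowest value, and the 2 measured erythroid markers averaged 3.83 on array 2 at 12 months and 3.69 on array 3 at 24 months, above the other arrays. The part of these markers in the P450 values was not tested. In whole liver, fewer cells of a type and less RNA per cell cannot be told apart.

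Other marker lists gave these ranges of array means. The 5 tested of 6 cholangiocyte markers lay at -2.02 to -0.60 at 3 and 9 months, -2.49 to -2.08 at 12 and 18 months, and -1.28 to -0.66 at 24 months. Stellate cell and fibroblast markers, 6 of 6, lay at 1.03 to 1.27 at 3 months and 0.22 to 1.14 later. Neutrophil markers, 5 of 5, lay at 0.10 to 0.47 at 3 months, -3.50 to -1.44 from 9 to 18 months and -2.97 to 0.47 at 24 months. The 2 tested of 4 B cell markers stayed between -5.04 and -3.36, 4 of 6 pancreas markers between -1.92 and 0.20, and 2 of 3 lung markers between -5.16 and -2.51.

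In family 1 only Cyp1a1 passed the test over the 5 ages, and it did so on dim values. Cyp1a1, the enzyme best known for its induction by dioxin-like compounds through the aryl hydrocarbon receptor, read -5.46, -5.25 and -5.13 at 3 months, -4.47, -4.48 and -5.27 at 9 months, -4.09, -4.31 and -5.25 at 12 months, -3.12, -2.51 and -2.54 at 18 months, and -2.88, -2.84, -3.92 and -5.71 at 24 months. It was well above background on all 3 arrays at 18 months and on arrays 1 and 2 at 24 months, and on none at 3, 9 or 12 months. The gene thus entered the test through 18 months alone, the age with its highest mean, and its call is not free of this choice. The 18-month arrays stood above every array of the 3 younger ages, while array 4 at 24 months was the lowest of all. Over the 5 ages the adjusted p was 0.0228 in limma, with means from -5.28 at 3 to -2.72 at 18 months. That call was lost without array 1 at 3 months or array 3 or 4 at 18 months (up to 0.0724). Of 26 alternative settings 6 lost it, with adjusted p up to 0.421 (limma). The 18-month level was at least 2.97-fold that at 12 months, counting the dim side at the array's background limit (means -2.72 and -4.55), but that step alone missed the threshold (adjusted p = 0.14 in limma). The 24-month level was at least 1.97-fold that at 3 months by the same count (means -3.84 and -5.28, adjusted p = 0.104, limma), and this comparison, dim on its 3-month side, was called only without array 4 at 24 months among the fits that each left out 1 array (adjusted p = 0.00198).

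Cyp1a2, the constitutive family 1 enzyme of liver that oxidises caffeine and arylamines, averaged 5.86 ± 0.01 (SD, n = 3) at 3 months, 4.83 ± 0.21 at 9, 4.87 ± 0.16 at 12, 5.10 ± 0.19 at 18 and 5.37 ± 0.89 (n = 4) at 24 months. The arrays at 3 months lay above all at 9, 12 and 18 months, and those at 24 months spread over the whole range. No comparison passed (adjusted p over the ages 0.135 in limma), and its second probe gave -0.86 for 9 against 3 months beside -1.03. With the slide as a random block it was called lower at 9 than at 3 months (-1.04, adjusted p = 0.0274, limma), as it was without array 4 at 24 months and in a fit of those 2 ages alone; without that array it was also called higher at 24 than at 18 months. Cyp1b1, found mainly outside the liver, was not well above background on any array.

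Family 2 held the Cyp2b genes, the classical phenobarbital-inducible enzymes switched on through CAR, whose 24-month arrays spread over most of the range seen at all ages. The probes are printed first because the genes are close copies and what a probe can tell apart rests on its letters. Each is given 5′ to 3′ with its rn4 position as the array's annotation lists it, and capitals mark stretches of at least 12 letters that 2 of the printed probes share. A span above 60 bases means that the listed position is interrupted, as it would be for a probe across a splice junction. The exon each probe lies in was not looked up, so whether such a probe crosses a junction was not tested.
Cyp2b1, chr1:81282851-81285942: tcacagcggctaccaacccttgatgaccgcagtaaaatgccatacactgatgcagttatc
Cyp2b2 probe 1, chr1:81352588-81352647: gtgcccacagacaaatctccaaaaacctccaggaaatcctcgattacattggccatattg
Cyp2b2 probe 2, chr1:81358908-81358967: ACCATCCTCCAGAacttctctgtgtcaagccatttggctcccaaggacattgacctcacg
Cyp2b2 probe 3, chr1:81354719-81354778: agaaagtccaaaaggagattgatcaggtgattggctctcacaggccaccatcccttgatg
Cyp2b12, chr1:81790847-81790906: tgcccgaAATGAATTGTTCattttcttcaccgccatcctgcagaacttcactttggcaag
Cyp2b15, chr1:81844177-81872090: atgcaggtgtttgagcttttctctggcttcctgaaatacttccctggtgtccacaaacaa
Cyp2b21 probe 1, chr1:81581501-81581560: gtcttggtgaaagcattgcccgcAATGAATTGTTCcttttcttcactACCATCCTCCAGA
Cyp2b21 probe 2, chr1:81670825-81670884: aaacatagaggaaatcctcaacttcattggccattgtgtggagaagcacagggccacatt

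Of 2145 pairs among the 66 probes, 8 shared at least 12 letters in a row or were at least 80% identical over 30 or more aligned bases, all between different genes. The Cyp2b12 probe and Cyp2b21 probe 1 matched at 39 of 44 aligned bases (88.6%). A further Cyp2b2 probe, which stands for that gene in the fit and is not printed, matched the Cyp2b3 probe at 30 of 35. The array's annotation lists both Cyp2b1 and Cyp2b2 for 3 Cyp2b2 probes and both Cyp2b12 and Cyp2b15 for the Cyp2b12 probe. Readings within the subfamily may therefore hold signal of more than 1 gene, and the genes are uncertain as separate measurements.

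Cyp2b2 read 6.25, 6.72 and 6.84 at 3 months, 5.28, 5.44 and 5.25 at 9 months, 3.35, 4.92 and 4.49 at 12 months, 7.05, 6.9 and 6.46 at 18 months, and 8.92, 6.58, 6.08 and 4.07 at 24 months. Array 1 at 24 months was the highest of all, 47.5-fold above array 2 at 12 months, the lowest, and array 4 at 24 months was the second lowest. The 12-month arrays lay below all arrays at 3, 9 and 18 months. Means were 6.60 ± 0.31, 5.32 ± 0.10, 4.25 ± 0.81 and 6.80 ± 0.31 (SD, n = 3) at 3, 9, 12 and 18 months and 6.42 ± 1.99 (n = 4) at 24 months. The 12 to 18 month difference of 2.55 (SE 0.82) missed the threshold over all arrays (adjusted p = 0.141, limma) but passed without array 1 or without array 4 at 24 months, and within the scan session that holds arrays 3 and 4 at 12 months and the 18-month arrays.

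The same order held for 4 other Cyp2b genes. On all 9 measured probes of Cyp2b1, Cyp2b2, Cyp2b12, Cyp2b15 and Cyp2b21, array 1 at 24 months was the highest and array 2 at 12 months the lowest, and on 8 of the 9 array 4 at 24 months was the second lowest. The ranges over the 16 arrays ran from 2.04 to 8.17 log2 units. Under quantile normalization and in the authors' processed values these counts were the same; under normexp correction they were 9, 7 and 5. Cyp2b1 ran from 1.97 to 6.64, Cyp2b12 from 0.54 to 5.81, Cyp2b15 from -0.15 to 4.32 and Cyp2b21 probe 1 from 4.66 to 6.69. Cyp2b21 probe 2, above background on 12 arrays, ran from -6.05 to 0.88. It was not above background on array 2 at 12 months or array 4 at 24 months, so its order there is not measured. Probe 1, which stands for Cyp2b21, lies on the plus strand of rn4 and probe 2 on the minus strand, where RefSeq (GRCr8) places the gene. Probes 1 and 2 gave 0.39 and 4.21 for 18 against 12 months. For 24 against 18 months they gave 0.22 and -1.73, so the size of the changes differed between them. None of the 5 genes passed any comparison in the main fit, with adjusted p over the ages of 0.242, 0.0802, 0.114, 0.225 and 0.165 in that order (limma). In the fit of 3 and 9 months alone Cyp2b2, Cyp2b12 and Cyp2b15 were called lower at 9 months. These probes share their arrays and in part their letters, so they are not independent readings.

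**Figure D2:**
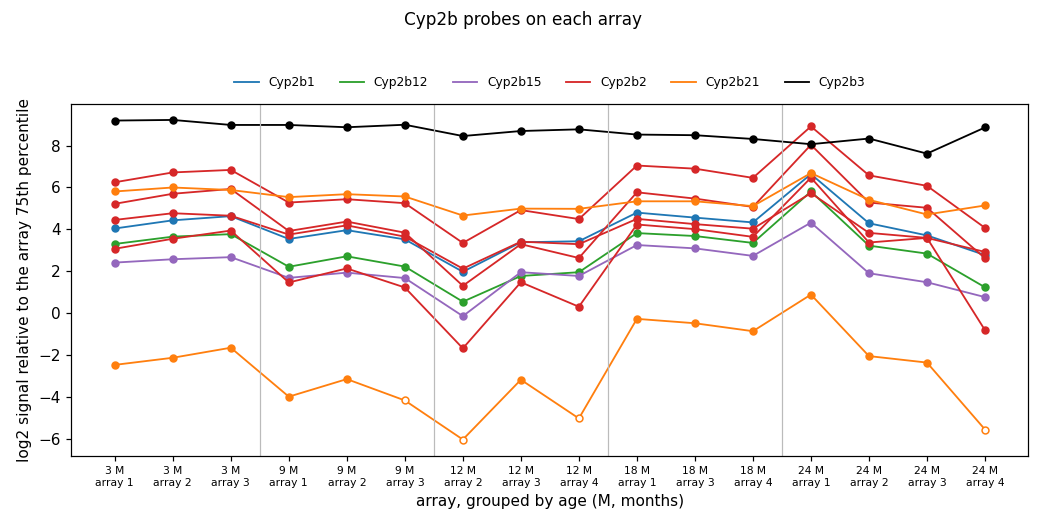
Log2 level of the Cyp2b probes on each of the 16 arrays, grouped by age, filled where the probe was well above background, with Cyp2b3 in black for contrast. Array 1 at 24 months is the top point and array 2 at 12 months the bottom point of each of the 9 probes, while Cyp2b3 stays between 7.62 and 9.23.

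Cyp2b3, a member of the subfamily known as not inducible by phenobarbital, behaved otherwise. It read 9.2, 9.23 and 8.99 at 3 months, 8.99, 8.88 and 9.0 at 9 months, 8.46, 8.7 and 8.78 at 12 months, 8.53, 8.5 and 8.32 at 18 months, and 8.07, 8.34, 7.62 and 8.87 at 24 months. Every array at 24 months lay below every array at 3 months, and array 1 at 24 months, the highest for the other genes, was among the low ones. The 24-month mean was 1.89-fold lower than at 3 months (log2 difference -0.92, SE 0.22, adjusted p = 0.0131, limma). Leaving out array 1 or array 2 at 3 months ended that call (adjusted p up to 0.0599).

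Because Cyp2b1 and Cyp2b2 followed one order over the arrays and Cyp2b3 did not, their promoters are set side by side. RefSeq (GRCr8) gives 250 bases before and 50 after the start for 44 of the 53 genes; all 3 lie on the plus strand. Capitals mark the motifs found among 7 that were searched on both strands.
Cyp2b1 promoter, chr1:90645869-90646168: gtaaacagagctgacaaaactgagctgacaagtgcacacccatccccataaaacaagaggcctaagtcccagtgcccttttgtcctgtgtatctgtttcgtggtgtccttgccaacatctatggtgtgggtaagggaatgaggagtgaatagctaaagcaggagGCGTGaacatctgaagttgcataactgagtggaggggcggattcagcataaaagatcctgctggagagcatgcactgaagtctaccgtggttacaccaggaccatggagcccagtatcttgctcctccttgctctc
Cyp2b2 promoter, chr1:90722031-90722330: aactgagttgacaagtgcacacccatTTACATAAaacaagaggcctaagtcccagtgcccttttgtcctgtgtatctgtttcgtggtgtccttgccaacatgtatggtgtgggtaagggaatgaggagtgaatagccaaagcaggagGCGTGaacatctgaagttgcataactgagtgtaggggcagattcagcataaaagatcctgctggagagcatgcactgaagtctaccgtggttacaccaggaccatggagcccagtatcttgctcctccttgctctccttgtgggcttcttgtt
Cyp2b3 promoter, chr1:90780242-90780541: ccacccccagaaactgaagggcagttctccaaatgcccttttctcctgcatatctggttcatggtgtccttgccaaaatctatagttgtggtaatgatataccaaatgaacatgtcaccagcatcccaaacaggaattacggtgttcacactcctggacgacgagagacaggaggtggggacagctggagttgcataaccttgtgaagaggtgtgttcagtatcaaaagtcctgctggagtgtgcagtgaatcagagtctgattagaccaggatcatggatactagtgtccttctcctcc

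The Cyp2b1 and Cyp2b2 windows were identical at 275 of 317 aligned columns (86.8%), Cyp2b1 and Cyp2b3 at 56.8%, and Cyp2b2 and Cyp2b3 at 55.5%. Both Cyp2b1 and Cyp2b2 held GCGTG, the core that the aryl hydrocarbon receptor binds, with its first base at -86 and -103 from the start, and Cyp2b2 alone of the 3 held TTATGTAA, a D-box bound by Dbp and related factors, on the minus strand at -224. The Cyp2b3 window held none of the 7. Cyp2b12, Cyp2b15 and Cyp2b21 followed the same array order as Cyp2b1 and Cyp2b2. Their windows matched that of Cyp2b1 at 60.3%, 58.4% and 58.1%, near the value for Cyp2b3, and held neither GCGTG nor TTATGTAA. Whether the promoters bear on the array order was not tested. Over all 33469 promoters of this length 29.7% held GCGTG and 0.893% held TTATGTAA, and of the 44 genes 12 and 2 did. The other motifs were TATAAA in 12 of the 44 (14.2% of all promoters), CCAAT in 21 (37.5%) and AGGTCA, the core that nuclear receptors bind, in 15 (16.2%). DR1 and DR4, direct repeats of that core with 1 and 4 bases between them, overlap it and were in none of the 44 and in 0.0538% and 0.00598% of all. A match describes letters in this window and no bound site.

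Among Cyp2a genes, Cyp2a2, which hydroxylates testosterone and is male-predominant, passed the test over the ages. Cyp2a2 read 3.01, 2.94 and 3.33 at 3 months, 3.47, 3.75 and 3.25 at 9 months, 2.97, 2.94 and 2.83 at 12 months, 3.16, 3.02 and 2.99 at 18 months, and 3.15, 2.5, 2.45 and 2.89 at 24 months. The 9-month arrays held the highest value and arrays 2 and 3 at 24 months the lowest, and the 9-month arrays lay above all at 12, 18 and 24 months. The adjusted p over the ages was 0.039 in limma, with no pair of successive ages called, and 10 of the 16 fits that each left out 1 array lost it (adjusted p up to 0.131). Cyp2a1, its female-predominant neighbour in sequence, read 3.48, 3.48 and 3.78 at 3 months, 3.49, 3.99 and 3.38 at 9 months, 2.25, 3.23 and 3.31 at 12 months, 3.46, 3.65 and 3.65 at 18 months, and 4.07, 3.64, 3.73 and 2.97 at 24 months. Array 2 at 12 months was the lowest and array 1 at 24 months the highest. The 12-month arrays lay below all at 9 and 18 months, but no comparison passed in the main fit (over the ages adjusted p = 0.216, limma). With the slide as a random block Cyp2a1 was called lower at 12 than at 9 months. The probes of this pair matched at 51 of 60 bases (85%), so each may bind both messages. Cyp2a3, an airway enzyme, was above background only on array 3 at 3 months, at -3.09, and was not tested.

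The Cyp2c genes gave the most calls for 24 against 3 months, 3 of 7 lower, where 9.07% of all genes were lower. Cyp2c7, a female-predominant enzyme that 4-hydroxylates retinoic acid, is covered by 4 probes, printed because they were read at 4 places and agreed.
Cyp2c7 probe 1, chr1:243702556-243702615: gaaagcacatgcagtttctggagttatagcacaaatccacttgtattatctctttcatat
Cyp2c7 probe 2, chr1:243702806-243702865: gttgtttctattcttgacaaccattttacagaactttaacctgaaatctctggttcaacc
Cyp2c7 probe 3, chr7_random:582002-582061: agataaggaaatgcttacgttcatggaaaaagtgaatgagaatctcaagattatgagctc
Cyp2c7 probe 4, chr7_random:582344-582403: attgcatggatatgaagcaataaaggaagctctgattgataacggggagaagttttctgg

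Probe 1, which stands for Cyp2c7, read 9.18, 9.21 and 8.98 at 3 months, 9.18, 9.08 and 9.24 at 9 months, 8.81, 8.57 and 9.12 at 12 months, 8.66, 9.05 and 8.53 at 18 months, and 8.12, 8.58, 7.9 and 8.54 at 24 months. All 24-month arrays were below all 3-month and all 9-month arrays. The 24-month mean was 1.79-fold lower than at 3 months (log2 difference -0.84, SE 0.19, adjusted p = 0.00959, limma). Tested one by one, all 4 probes were lower, by -1.54 to -0.84, and all 4 were called; from 18 to 24 months 2 of the 4 were. Probe 2 matched the Cyp2c6v1 probe at 29 of 35 bases, and the annotation places probes 3 and 4 on rn4 sequence assigned to chromosome 7 without a position, while the others lie on chromosome 1. No single array, left out, ended the 24 against 3 months call, and the slide as a random block did (-0.92, adjusted p = 0.236).

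Cyp2c13, a male-predominant steroid hydroxylase, read 9.25, 9.36 and 9.18 at 3 months, 9.15, 9.25 and 9.21 at 9 months, 9.0, 9.2 and 9.1 at 12 months, 9.05, 9.14 and 8.89 at 18 months, and 8.5, 8.03, 7.88 and 9.08 at 24 months. Levels were within 8.89 to 9.36 on all 12 arrays up to 18 months, and arrays 1, 2 and 3 at 24 months lay below that band while array 4 at 24 months lay within it. The mean at 24 months was 1.85-fold lower than at 3 months (-0.89, SE 0.22, adjusted p = 0.0158) and 1.57-fold lower than at 18 months (-0.65, SE 0.22, adjusted p = 0.042, limma), the one called step whose age ranges overlapped. That step was kept only without array 2 or 3 at 12 months or array 4 at 24 months and lost without any of the other 13 arrays (adjusted p up to 0.132), and the 24 against 3 months call without array 1 or 2 at 3 months (adjusted p up to 0.0694).

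Cyp2c79 showed the widest step of the subfamily. It read -0.03, -0.19 and -0.03 at 3 months, -0.19, 0.0 and -0.26 at 9 months, -2.19, -0.03 and 0.44 at 12 months, 0.94, 0.97 and 0.87 at 18 months, and -1.71, -1.39, -2.5 and -1.07 at 24 months. The 18-month arrays were the highest and lay close together, and all 24-month arrays were below them and below all at 3 and 9 months; array 2 at 12 months was also low. From 18 to 24 months it fell by 2.60 log2 units (SE 0.47, 6.05-fold, adjusted p = 0.00126, limma), a call kept whichever array was left out and lost with the scan session as a random block (-1.3, adjusted p = 0.186). Against 3 months the mean was 3-fold lower (-1.58, SE 0.47, adjusted p = 0.0415), a call kept without a 12-month array or array 4 at 24 months and lost without any of the other 12 (adjusted p up to 0.123).

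Cyp2c6v1, an enzyme of broad drug metabolism, was 8.87, 8.98 and 8.79 at 3 months, near that at 9 and 12 months, 9.07 to 9.12 at 18 months and 8.48 to 8.79 at 24 months. The last 2 ages did not overlap, and it fell by 0.46 from 18 to 24 months (SE 0.11, 1.37-fold, adjusted p = 0.00647, limma). That call was lost under quantile normalization (-0.31, adjusted p = 0.175), in the authors' processed values (-0.32, 0.151), under normexp correction (0.137) and with the slide (0.172) or the scan session (0.176) as a random block. Cyp2c22, a liver enzyme of retinoid metabolism, ranged from 2.61 to 2.88 at 3 months and from 0.24 to 2.01 at 24 months without overlap, and just missed the threshold (difference -1.34, adjusted p = 0.0531; over the ages 0.0553, limma). It was called without array 4 at 24 months (-1.54, adjusted p = 0.0349).

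Cyp2c11, the main male-specific P450 of rat liver, a testosterone hydroxylase, read 8.84, 8.89 and 9.06 at 3 months, 9.41, 9.67 and 9.58 at 9 months, 8.35, 9.07 and 9.44 at 12 months, 8.88, 8.94 and 8.91 at 18 months, and 8.97, 8.5, 7.06 and 8.96 at 24 months. The 9-month arrays were high, array 3 at 24 months was far below the rest at 7.06, and the other 3 arrays at 24 months overlapped those at 3 months. Means were 8.93 ± 0.11 (SD, n = 3) at 3 and 8.37 ± 0.90 (n = 4) at 24 months, with no comparison called in the main fit (24 against 3 months -0.56, adjusted p = 0.376, and over the ages 0.155, limma). With the slide as a random block Cyp2c11 was called lower at 12 than at 9 months, and in the fit of 3 and 9 months alone higher at 9. Cyp2c12, the female-specific steroid sulfate hydroxylase, read -0.73, -0.59 and -0.32 at 3 months, -0.87, -0.11 and -0.59 at 9 months, -0.15, -0.7 and -0.35 at 12 months, -0.89, -0.63 and -0.31 at 18 months, and 0.84, 1.65, -0.61 and 0.08 at 24 months. It was low at every age up to 18 months and higher on arrays 1, 2 and 4 at 24 months, with array 3 at 24 months within the younger range. The 24 against 3 months difference of 1.04 missed the threshold over all arrays (adjusted p = 0.107) and passed without array 3 at 24 months (1.4, adjusted p = 0.0135) and without arrays 3 and 4 (1.79, adjusted p = 0.00162, limma).

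Genes known as male- or female-predominant in rat liver were counted apart. Of the 5 male-predominant genes (Cyp2c11, Cyp2c13, Cyp2a2, Cyp3a2 and Cyp3a18) 1 was lower and 0 higher at 24 than at 3 months, with all 5 mean differences below 0 (-0.95 to -0.35) and a median of -0.56, and 2 passed over the ages. Of the 4 female-predominant genes (Cyp2c12, Cyp2c7, Cyp2a1 and Cyp3a9) 2 were lower and 0 higher, with a median of -0.41, and 2 passed over the ages. Over all genes the median was -0.04, 9.07% were lower and 4.24% higher, and 37.4% passed over the ages. Neither list was tested as a group. No female rats were measured, so the labels male and female are background and not readings.

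**Figure D3:**
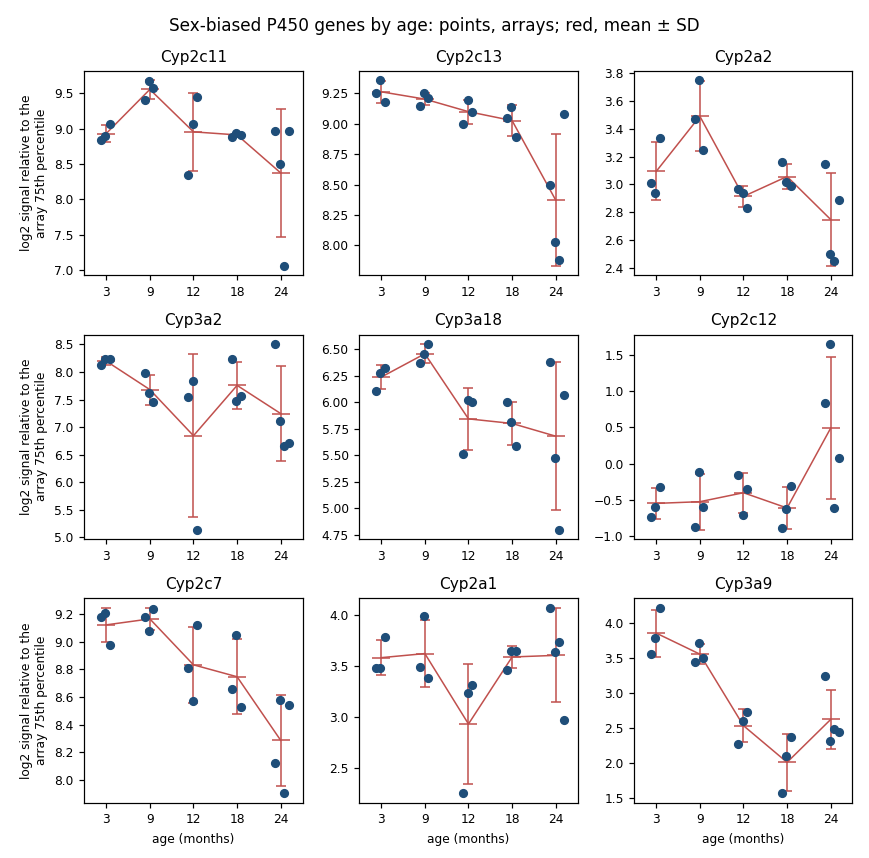
Log2 levels by array at 3, 9, 12, 18 and 24 months for the male-predominant (Cyp2c11, Cyp2c13, Cyp2a2, Cyp3a2, Cyp3a18) and the female-predominant genes, each point an array and red the mean ± SD of an age. Cyp2c13 and Cyp2c7 sit lowest at 24 months, Cyp3a9 is highest at 3 months with a mean of 3.86, and Cyp2c11 has 1 low array at 7.06.

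The Cyp2d genes, which oxidise many amine drugs, were tested in 4 members, and none passed any comparison in the fit without a block. With the slide as a random block Cyp2d2, Cyp2d3 and Cyp2d4 were called lower at 12 than at 9 months, and without array 2 at 12 months Cyp2d4 was called lower at 24 than at 18 months. Cyp2d5 had age means from 7.27 to 7.4 (adjusted p over the ages 0.945, limma). Its probe also lists Cyp2d1, which has no probe of its own here. Cyp2e1, the ethanol-oxidising enzyme, averaged 8.96 ± 0.09 at 3, 8.69 ± 0.03 at 9, 8.63 ± 0.29 at 12, 8.68 ± 0.27 at 18 (SD, n = 3) and 8.64 ± 0.48 at 24 months (n = 4), with an adjusted p over the ages of 0.684.

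Cyp2j3, an arachidonic acid epoxygenase, is read by a pair of probes that disagreed, printed here for that reason.
Cyp2j3 probe 1, chr5:116744342-116744401: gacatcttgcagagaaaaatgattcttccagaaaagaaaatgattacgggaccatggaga
Cyp2j3 probe 2, chr5:116755239-116755298: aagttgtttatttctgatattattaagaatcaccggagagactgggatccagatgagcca

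Cyp2j3 probe 1 read 4.49, 4.76 and 4.57 at 3 months, 4.5, 4.44 and 4.58 at 9 months, 4.05, 4.39 and 4.93 at 12 months, 4.44, 4.43 and 4.69 at 18 months, and 4.18, 3.78, 3.03 and 3.37 at 24 months. Its levels at 24 months were below those at 3, 9 and 18 months on every array, and array 2 at 12 months lay inside the 24-month range. It was 2.02-fold lower at 24 than at 3 months (-1.02, SE 0.24, adjusted p = 0.0139) and 1.90-fold lower than at 18 months (-0.93, SE 0.24, adjusted p = 0.0124, limma). Probe 2, above background on all 16 arrays, gave -0.51 and 0.06 for these comparisons and was called in neither. Leaving out array 2 at 3 months ended the former call (adjusted p = 0.0675) and array 4 at 18 months the latter (0.0549).

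Cyp2t1 read 1.94, 2.15 and 2.14 at 3 months, 2.18, 2.38 and 2.03 at 9 months, 1.29, 1.68 and 1.73 at 12 months, 1.28, 1.52 and 1.42 at 18 months, and 1.81, 1.67, 1.26 and 1.75 at 24 months. Arrays at 12 and 18 months lay below all arrays at 3 and 9 months, as did those at 24 months. It fell by 0.63 from 9 to 12 months (SE 0.17, 1.54-fold, adjusted p = 0.0433; over the ages 0.00718, limma), a step kept only without array 1, 3 or 4 at 24 months and lost without any of the other 13 (adjusted p up to 0.153). Its function in rat liver is little described.

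Cyp2s1 and Cyp2w1, enzymes known mainly outside the liver, were measured near background and had the lowest values at 24 months. Cyp2s1 read -3.61, -4.03 and -4.27 at 3 months, -4.3, -4.15 and -4.41 at 9 months, -4.59, -3.89 and -3.71 at 12 months, -3.56, -3.52 and -3.41 at 18 months, and -6.65, -6.49, -5.09 and -6.07 at 24 months. It was well above background on 10 arrays and on none at 24 months, and every 24-month array was below every other. The gene entered the test through 3 and 18 months alone, the ages with its highest means. Its p-values against those ages are not free of this choice. The measured means were -6.08 at 24 and -3.50 at 18 months (adjusted p = 5.84e-05, limma). Counting the dim arrays at their background limit, the level at 18 months was at least 1.62-fold and that at 3 months at least 1.17-fold that at 24 months (adjusted p against 3 months 0.000731).

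Cyp2w1 read -4.43, -5.33 and -4.94 at 3 months, -5.33, -4.84 and -5.02 at 9 months, -4.97, -4.43 and -4.45 at 12 months, -3.87, -4.0 and -4.1 at 18 months, and -6.48, -5.88, -6.75 and -5.73 at 24 months. Only the 3 arrays at 18 months were well above background, so the gene entered the test through its highest age alone. Its p-values against that age are not free of this choice. Again every 24-month array was below every other. The 18-month level was at least 1.16-fold that at 24 months (means -3.99 and -6.21, adjusted p = 4.29e-05, limma). Against 3 months the call (-1.31, adjusted p = 0.00499) set 2 ages against each other that were both not well above background, and no fold is given. Under normexp correction these dim differences shrank or turned: the Cyp2w1 difference was 0.09 against 18 months and 0.36 against 3 months, and the Cyp2s1 difference against 3 months was 0.12.

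**Figure D4:**
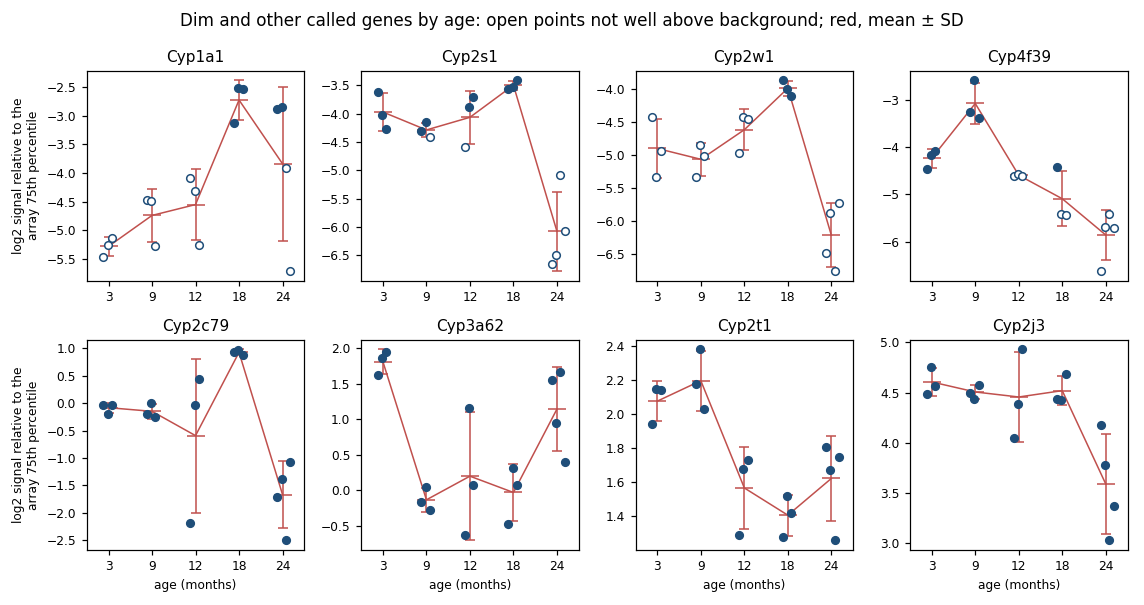
Log2 levels by array at 3 to 24 months of 4 genes measured near background (top) and of Cyp2c79, Cyp3a62, Cyp2t1 and Cyp2j3 (bottom), filled where the probe was well above background and open where it was not, with the mean ± SD of each age in red. All 24-month points of Cyp2s1 and Cyp2w1 are open and lowest, and Cyp1a1 is filled at 18 months and on 2 arrays at 24 months.

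The other family 2 genes gave no call in the main fit. Cyp2f4 was called higher at 9 than at 3 months in the fit of those ages alone and without arrays 3 and 4 at 24 months. Without array 4 at 24 months Cyp2u1, dim at that age, was called lower there than at 3 and at 18 months. Cyp2f4, Cyp2j4, Cyp2j10, Cyp2r1 (a vitamin D 25-hydroxylase) and Cyp2u1 had adjusted p over the ages from 0.058 to 0.707 in limma. Cyp2j4 averaged 4.55 ± 0.15 at 3 (SD, n = 3) and 5.28 ± 0.55 at 24 months (n = 4), and its arrays ran from 4.39 to 4.68 and from 4.68 to 5.99, meeting at the edge; the difference of 0.73 (adjusted p = 0.0963) became a call without array 4 at 24 months (0.93, adjusted p = 0.0266). Cyp2g1 and Cyp2j13 were not well above background on any array.

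In family 3, whose Cyp3a enzymes oxidise steroids and many drugs and are induced through PXR, 3 of 5 genes passed over the ages. The share of all genes was 37.4%. Cyp3a9, female-predominant and responsive to oestrogen, read 3.56, 3.79 and 4.22 at 3 months, 3.45, 3.72 and 3.5 at 9 months, 2.28, 2.6 and 2.73 at 12 months, 1.57, 2.1 and 2.37 at 18 months, and 3.24, 2.32, 2.49 and 2.45 at 24 months. All arrays at 12 and 18 months and all at 24 months lay below all at 3 and 9 months. It fell 2.03-fold from 9 to 12 months (-1.02, SE 0.26, adjusted p = 0.0359) and was 2.35-fold lower at 24 than at 3 months (-1.23, SE 0.24, adjusted p = 0.00458; over the ages 0.000563, limma). The call against 3 months held whichever array was left out, within the scan session that holds both ages (arrays scanned on different days) and under normexp correction, and was lost with the slide as a random block; the 9 to 12 month call was lost without any 9-month or 12-month array, array 2 at 3 months or array 3 at 18 months (adjusted p up to 0.119).

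Cyp3a62, a form reported from liver and intestine, had the one call from 3 to 9 months. It read 1.62, 1.87 and 1.95 at 3 months, -0.17, 0.05 and -0.28 at 9 months, -0.63, 1.16 and 0.07 at 12 months, -0.47, 0.31 and 0.07 at 18 months, and 1.56, 0.95, 1.67 and 0.4 at 24 months. The 3-month arrays were high, the 9-month arrays were low, arrays at 12 months spread from -0.63 to 1.16, and those at 24 months were above all at 18 months. It fell 3.85-fold from 3 to 9 months (-1.95, SE 0.40, adjusted p = 0.0119) and rose 2.25-fold from 18 to 24 months (1.17, SE 0.37, adjusted p = 0.0335, limma). The first call was lost without arrays 2 or 3 at 3 months or array 3 at 9 months (adjusted p up to 0.056), and the second without arrays 1 or 4 at 18 months or arrays 1 or 3 at 24 months (up to 0.14) and with the slide as a random block (1.14, adjusted p = 0.467).

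Cyp3a23/3a1, the form most inducible by steroid ligands of PXR, averaged 5.74 ± 0.08, 6.23 ± 0.24, 5.95 ± 0.23, 6.57 ± 0.10 (SD, n = 3) and 6.03 ± 0.42 (n = 4) from 3 to 24 months. Its 18-month arrays were the highest on average, met by array 3 at 9 months at 6.46 and array 1 at 24 months at 6.47, and the adjusted p over the ages of 0.0498 lay at the threshold and was lost in 10 of the 16 fits that each left out 1 array. Cyp3a2, a male-predominant testosterone hydroxylase, read 8.12, 8.24 and 8.23 at 3 months, 7.98, 7.61 and 7.45 at 9 months, 7.55, 7.84 and 5.14 at 12 months, 8.24, 7.47 and 7.56 at 18 months, and 8.51, 7.11, 6.65 and 6.71 at 24 months. Array 4 at 12 months was far below the others at 5.14 and array 1 at 24 months the highest, and no comparison passed (over the ages 0.325, limma). Cyp3a18, also male-predominant, read 6.11, 6.28 and 6.32 at 3 months, 6.37, 6.45 and 6.55 at 9 months, 5.51, 6.02 and 6.0 at 12 months, 6.0, 5.81 and 5.59 at 18 months, and 6.38, 5.47, 4.8 and 6.07 at 24 months. The 9-month arrays were the highest on average and array 3 at 24 months the lowest at 4.8, with overlap between 3 and 24 months and no comparison called (0.154, limma).

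In family 4, 5 of 12 tested genes passed over the ages, where 37.4% of all genes did. Cyp4a3, an omega-hydroxylase of fatty acids and arachidonic acid induced through PPARA, read 5.44, 5.6 and 5.67 at 3 months, 6.25, 6.0 and 6.29 at 9 months, 5.97, 6.29 and 6.89 at 12 months, 7.03, 7.12 and 7.42 at 18 months, and 6.66, 6.04, 6.22 and 5.59 at 24 months. The 18-month arrays were above all others, the 3-month arrays and array 4 at 24 months were the lowest, and the arrays at 9, 12 and 24 months overlapped. It fell 2.09-fold from 18 to 24 months (-1.07, SE 0.24, adjusted p = 0.00492; over the ages 0.00325, limma), a call kept whichever array was left out and under normexp correction, and lost with the slide (-1.12, adjusted p = 0.217) or the scan session (-0.73, 0.221) as a random block. The difference from 3 to 24 months was 0.56 and not called (adjusted p = 0.152), except without array 4 at 24 months (0.73, adjusted p = 0.0425).

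The other 3 Cyp4a genes varied within ages. Cyp4a1, the leading clofibrate-induced form, read 3.97, 4.08 and 4.28 at 3 months, 4.66, 4.56 and 4.83 at 9 months, 4.38, 3.96 and 5.28 at 12 months, 4.52, 5.06 and 5.73 at 18 months, and 5.62, 5.71, 4.56 and 4.21 at 24 months. The 3-month arrays were low and arrays 1 and 2 at 24 months above all but array 4 at 18 months. The 3- and 9-month arrays did not overlap and the later steps did, with no call in the main fit (over the ages 0.238, and 24 against 3 months 0.91, adjusted p = 0.151, limma). In the fit of 3 and 9 months alone Cyp4a1 was called higher at 9 months. Cyp4a2, which makes 20-HETE in kidney and liver, read 2.24, 2.61 and 3.29 at 3 months, 1.88, 2.45 and 1.53 at 9 months, 0.29, 2.97 and 2.57 at 12 months, 3.33, 3.84 and 4.31 at 18 months, and 3.86, 2.2, 3.9 and 1.1 at 24 months. Array 2 at 12 months and array 4 at 24 months were the lowest at 0.29 and 1.10, and the 18-month arrays were all high (over the ages 0.201). Cyp4a8 read 4.14, 4.55 and 5.01 at 3 months, 4.31, 4.58 and 4.12 at 9 months, 2.96, 4.88 and 5.05 at 12 months, 5.13, 5.64 and 5.91 at 18 months, and 5.7, 4.48, 5.51 and 3.69 at 24 months. Its lowest arrays were those of Cyp4a2, and it passed no comparison (0.274, limma).

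Cyp4b1, an enzyme of lung and kidney, read -1.58, -2.3 and -1.64 at 3 months, -2.16, -1.15 and -2.02 at 9 months, -2.27, -1.49 and -0.93 at 12 months, -1.67, -1.01 and -1.08 at 18 months, and -1.17, -0.69, -1.49 and -1.73 at 24 months. Its ages overlapped throughout (over the ages 0.442, limma). Cyp4f genes inactivate leukotriene B4 and hydroxylate long fatty acids. Cyp4f1 read 8.83, 8.96 and 8.82 at 3 months, 8.99, 8.84 and 9.01 at 9 months, 8.77, 8.58 and 8.61 at 12 months, 8.48, 8.39 and 8.17 at 18 months, and 8.41, 8.52, 7.91 and 8.82 at 24 months. All 18-month arrays were below all at 3, 9 and 12 months, and array 4 at 24 months was back at the 3-month level while array 3 was the lowest (over the ages 0.0473, limma, kept only without array 2 at 12 months or array 3 or 4 at 24 months).

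Cyp4f5 had the one rise of the family. Its levels were -0.30 to -0.24 at 3 months, -0.39 to -0.16 at 9, -1.04 to 0.14 at 12, -1.32 to -0.66 at 18 and -0.25 to 0.93 at 24 months. All 24-month arrays were above all at 18 months, and array 3 at 24 months was level with the youngest arrays. It rose 2.54-fold from 18 to 24 months (1.34, SE 0.30, adjusted p = 0.00453; over the ages 0.0243, limma), and that step was kept whichever array was left out but lost with the slide (1.24, adjusted p = 0.191) or the scan session (0.82, 0.251) as a random block. The test over the ages was lost without array 1 at 18 months or array 1 or 2 at 24 months. Cyp4f6 averaged 6.30 ± 0.07, 6.56 ± 0.03, 6.12 ± 0.21 and 5.80 ± 0.13 (SD, n = 3) at 3, 9, 12 and 18 months and 6.14 ± 0.30 (n = 4) at 24 months, passing over the ages (0.0257) and at no step; leaving out any 9-month array or array 3 or 4 at 18 months ended that call.

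Cyp4f39, an omega-hydroxylase of very long fatty acids in skin, was dim and had the smallest p of all 48 genes over the ages (0.000206, limma). It entered the test through 3 and 9 months alone, the ages with its highest means. Its p-values are not free of this choice. Cyp4f39 read -4.46, -4.17 and -4.08 at 3 months, -3.26, -2.59 and -3.39 at 9 months, -4.62, -4.56 and -4.61 at 12 months, -4.42, -5.42 and -5.44 at 18 months, and -6.62, -5.7, -5.41 and -5.71 at 24 months. It was well above background on 7 arrays, the 9-month arrays were the highest, all 12-month arrays were below them, and all 24-month arrays were below all at 3 months. The 9-month level was at least 2.44-fold that at 12 months (means -3.08 and -4.6, adjusted p = 0.0162, limma) on these background-subtracted signals. That call was lost without array 2 at 9 months, with the replicate block (0.0649) and under normexp correction, where the difference was -0.22 (0.938). The 24 against 3 months difference on measured values was -1.62 (SE 0.30, adjusted p = 0.00306), but its bound lay under 1-fold, so no fold is given, and under normexp correction it was 0.26.

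The remaining family 4 genes gave no call in the main fit. From 9 to 12 months Cyp4f4 was called higher under quantile normalization and with the slide as a random block, and Cyp4v3 lower with that block. Cyp4f4, Cyp4f17 and Cyp4v3 had adjusted p over the ages of 0.25, 0.176 and 0.4 (limma), and Cyp4x1 was not well above background on any array. Of the 16 genes of the fatty acid omega-hydroxylase list, 13 were on the array and 12 tested. At 24 against 3 months 0 were higher and 1 lower, beside 4.24% and 9.07% of all genes. The median difference was 0.03 beside -0.04 for all genes, and 5 passed over the ages, beside 37.4%.

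**Figure D5:**
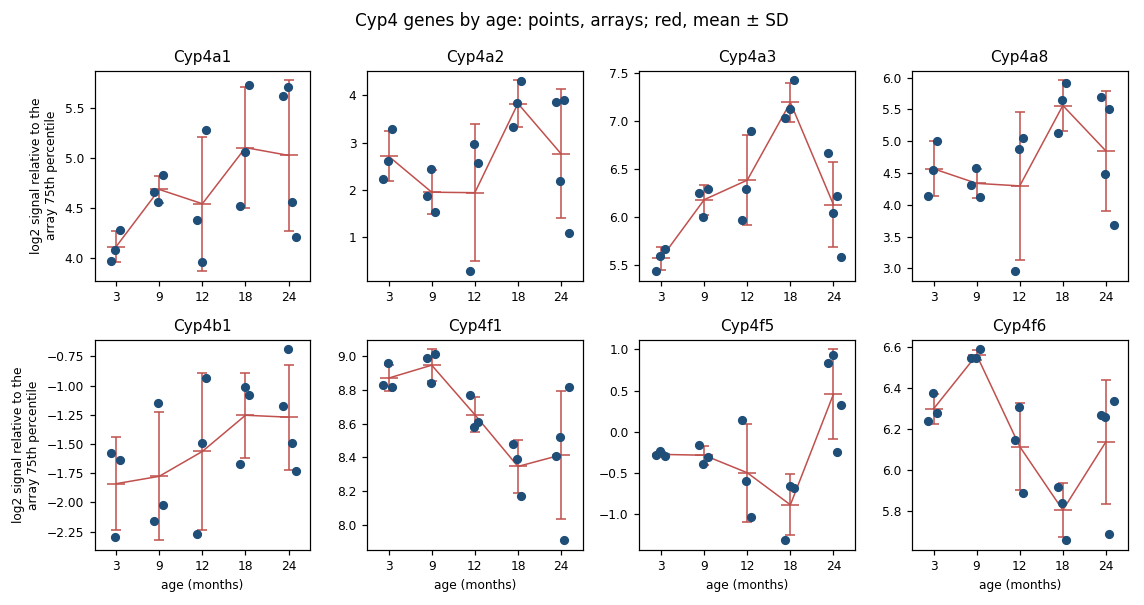
Log2 levels by array for 4 Cyp4a genes, Cyp4b1 and 3 Cyp4f genes at 3, 9, 12, 18 and 24 months, each point an array and red the mean ± SD of an age. Cyp4a3 peaks at 18 months with a mean of 7.19, Cyp4f5 is above its 18-month arrays at 24 months, and Cyp4f6 has 1 array at 5.69 at 24 months.

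The genes that supply, sense or accompany these enzymes were read from lists chosen by function, each with its own counts. Of all genes 37.4% passed over the ages, and 4.24% were higher and 9.07% lower at 24 than at 3 months. No list was tested as a group. Among 18 genes of electron transfer and haem supply, 2 were higher and 2 lower at 24 than at 3 months and 8 passed over the ages. Por, the electron donor of all these P450s, averaged 2.19 at 3, 1.94 at 9, 3.80 at 12, 4.24 at 18 and 4.10 at 24 months and was 3.75-fold higher at 24 than at 3 months (1.91, adjusted p = 0.00283, limma). Blvra, a biliverdin reductase, was lower (-0.52, adjusted p = 0.0187). Cyb5r3 and Pgrmc2 passed over the ages (adjusted p 0.00136 and 0.00252) but not between 24 and 3 months (-0.10 and -0.50). The median difference of the list was -0.08.

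Of 17 tested receptors and partners that sense foreign compounds and lipids, 1 was higher and 1 lower at 24 months, with a median of 0.10. Over the ages 6 passed, beside 37.4% of all genes. Ppara, the receptor behind Cyp4a induction, was 1.80-fold higher (0.85, adjusted p = 0.027, limma), and Ppard was lower on dim values (-1.80, adjusted p = 0.00647; above background on 11 arrays). Nr1h4, the bile acid receptor, and Ppargc1a, a coactivator, passed over the ages (0.000935 and 0.0103) with differences of 0.10 and -0.34 between the end ages.

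Of 22 tested genes of the growth hormone and sex axis, 3 were higher and 3 lower, and the median was -0.17. Over the ages 16 passed, beside 37.4% of all genes. Dbp, a clock-controlled factor that binds D-boxes, averaged -0.59 at 3, -0.36 at 9, 5.41 at 12, 4.75 at 18 and 4.11 at 24 months, and was 25.9-fold higher at 24 than at 3 months (4.70, adjusted p = 2.07e-05, limma). Its level is known to follow the hour of day in rat liver, and the hour of collection is not given. Foxa3, a liver-enriched transcription factor, was higher (1.16, adjusted p = 0.0015, limma). Stat5b, which carries the growth hormone pulse to male-predominant P450 genes, was 2.07-fold lower (-1.05, adjusted p = 0.00342).

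Of 23 PPARA targets outside the P450s, 3 were higher and 0 lower at 24 months, and the median was 0.50 beside -0.04 for all genes. Over the ages 10 passed, beside 37.4% of all genes. Decr1 (1.07, adjusted p = 0.00548) and Cpt2 (1.41, adjusted p = 0.00195, limma), both of fatty acid oxidation, were higher, while Acot2 and Cpt1a passed over the ages only (0.00879 and 0.0111). Of 21 tested targets of the aryl hydrocarbon receptor, CAR and PXR, 3 were higher and 1 lower, and the median was -0.08. Over the ages 9 passed, beside the same 37.4%. Abcb1b, a drug efflux pump, was higher by 3.04 (adjusted p = 0.000284; above background on 15 arrays) and Aldh1a7 by 1.78 (adjusted p = 0.00506; above background on 10), and Gadd45b and Tiparp passed over the ages only (0.000808 and 0.00319, limma).

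Zonal lists gave few calls at the end ages. The shares of all genes were 37.4% over the ages, and 4.24% higher and 9.07% lower at 24 than at 3 months. Of 12 pericentral genes, the zone where most P450s of liver are found, 1 was higher and 1 lower, 6 passed over the ages, and the median was -0.31; Lgr5 was lower on partly dim values (-2.95, adjusted p = 0.00044, limma), and Lect2 and Gulo passed over the ages only (0.00314 and 0.00676). Of 15 periportal genes 0 were higher and 1 lower, 4 passed over the ages, and the median was 0.08. The lower one was Aldh1b1 (-1, adjusted p = 0.0493), and Pck1, Apoa4 and Igf1 passed over the ages only (0.00238, 0.0166 and 0.0221).

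P450 genes of other families, which make bile acids and steroids and clear retinoic acid, stood beside those of families 1 to 4 with 10 of 18 tested. Of the 10, 5 passed over the ages and 2 were higher and 0 lower at 24 than at 3 months, against 19 of 48 and 0 higher and 9 lower. For all genes the shares were 37.4%, 4.24% and 9.07%. The difference between the groups was not tested. Cyp7a1, the rate-limiting enzyme of bile acid synthesis, averaged 1.97 at 3, -0.28 at 9, 3.13 at 12, 2.73 at 18 and 3.85 at 24 months and was 3.69-fold higher at 24 than at 3 months (1.88, adjusted p = 0.0176, limma). Cyp26a1, which clears retinoic acid, was 4.53-fold higher (2.18, adjusted p = 0.0188). Cyp17a1 and Cyp7b1 passed over the ages only (0.00469 and 0.0136).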

How the data were processed

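Labelled RNA from 16 liver samples was read on one-colour Agilent rat arrays. Per the file headers, the authors extracted spots with Agilent Feature Extraction 10.7.3.1, which gave background-subtracted intensity values and 0 or 1 flags per spot; these deposited intensity values were used on a log2 scale. Per the labels' protocols the RNA was labelled with a miRNA kit, whereas these are mRNA arrays; how the label was made is therefore unclear. The array annotation names rn4. The deposited series table holds the authors' log2 values, normalized by a method not given in the sources used here; its columns had medians of 4.92 to 4.94, and over probes above background they correlated with the scanner values of the same array at 1 (rounded) with slopes of 0.97 to 1.02, so scale and direction match while the centring stays unknown.

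Here outlier-flagged spots were set missing (43 values among kept probes), each array's 75th percentile of non-control log2 signal was subtracted, and spots of a probe were averaged. A probe was kept where every array of some age had it well above background (25682 of 41012, with 19885 on all 16). Dim genes could thus enter through ages where they read high. Cyp1a1 and Cyp2w1 entered only through 18 months, Cyp2s1 through 3 and 18 months, and Cyp4f39 through 3 and 9 months. Symbols came from the array accession through RefSeq for 18028 probes and otherwise from the array's gene name, and the kept probe with the highest mean stood for a gene. Groups and replicate numbers came from sample titles. One limma 3.58.1 fit in R 4.3.3 over all 16 arrays and 21478 genes gave the contrasts and the F test, two-sided; p-values were adjusted by Benjamini and Hochberg's method and called under 0.05; it was tested on simulated data. Figures were drawn with Python 3.11.15 and matplotlib 3.10.9. An "at least" fold sets the dim age's arrays at the lowest signal among probes well above background, or at the probe's own if higher. The number of arrays limits the precision.

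Genes with values by age are those passing any test and a fixed set of well-known members. The 12 with the smallest F-test p, and the sex-biased and fatty acid hydroxylase members of that fixed set, have the value of every array. These hydroxylases are Cyp4a1, Cyp4a2, Cyp4a3, Cyp4a8, Cyp4b1 and Cyp4f1. Genes of other lists are named if they passed the F test or 24 against 3 months, at most 4 a list by smallest p. One gene that this rule names is not reported here. The members and lists were chosen with earlier results of these data known. Alternatives covered background correction, normalization, dim probes, the probe of a gene, the slide, scan session and replicate number as blocks, the fold, the ages in the fit and each array in turn; leaving out arrays 3 and 4 at 24 months together and the fits within a slide or scan session were chosen after seeing the data. Replicate numbers did not pair the arrays: same-numbered arrays of different ages had correlations of deviations from -0.3 to 0.119 over 25 pairs (median -0.045).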

Additional observations from a re-analysis of the deposited data

Results flagged for a closer look

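Over the 4 arrays at 24 months, 48 genes were examined for an array standing apart from the others, and 1 was found. Cyp4f6, a leukotriene B4 hydroxylase, read 5.69 on array 3 at 24 months while the other 3 arrays read 6.26 to 6.34; the gap was 0.876 of the whole range, beyond Dixon's limit. Chance alone flags about 1 in 20 such groups, and the same array held the lowest value of 18 of the 48 genes. The other 3 arrays lay within the 3-month range of Cyp4f6, 6.24 to 6.38. The part of the array in the value was not tested.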

How the results depend on the processing

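Counts of P450 genes called moved by more than 1.5 times under these settings. Normexp background correction gave 0 for 9 to 12 months (3 in the main analysis), 3 for 18 to 24 months (9), 1 for 24 against 3 months (9) and 4 over the ages (19). Under it the median of all genes for 24 against 3 months was 0.12 (-0.04 in the main analysis) and calls among all genes went from 2857 to 483. The slide as a random block gave 3, 12, 3, 1 and 12 for 3 to 9, 9 to 12, 18 to 24, 24 against 3 months and over the ages, and the scan session as one gave 2 for 3 to 9 and 3 for 18 to 24 months. Calls among all genes were 2053, 4828, 971, 311 and 4831 with the slide, and 1487 and 1719 with the scan session. Fitting only the 2 ages compared gave 10 for 3 to 9 and 1 for 9 to 12 months. Among all genes that fit called 4125 and 221, beside 1103 and 1348 in the main analysis. No filter on dim probes gave 1 for 9 to 12 months, beside 685 of all genes. A 2-fold minimum gave 10 over the ages, beside 4872 of all genes. Chosen after seeing the data, leaving out arrays 3 and 4 at 24 months gave 4 for 3 to 9 and 2 for 12 to 18 months; fits within slide 1 gave 10 for 3 to 9 months, within slide 2 17 for 9 to 12 months, within scan session 1 9 for 9 to 12 months and within scan session 2 2 for 12 to 18 months. The within-slide fits, and the 9 to 12 month fit within scan session 1, hold 1 array of one age, which is assumed to vary like the others. For 9 to 12 months that is array 2 at 12 months. These counts therefore describe single arrays and are not read as differences between ages.

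Leaving out each array in turn gave 0 to 2 genes for 3 to 9 months, 0 to 4 for 9 to 12, 0 to 2 for 12 to 18, 6 to 13 for 18 to 24, 5 to 15 for 24 against 3 months and 13 to 25 over the ages. Among all genes these fits called 483 to 1628, 484 to 2156 and 82 to 724 for the steps up to 18 months. They called 3893 to 6892 for 18 to 24, 1571 to 3813 for 24 against 3 months and 6274 to 9755 over the ages. The replicate block, where the numbers are only shared, gave 1, 0, 0, 8, 11 and 13 calls in the same order. Among all genes that block gave 796, 366, 98, 4359, 2121 and 5409. Of named differences, 4 turned sign, all under normexp correction: Cyp2w1 to 0.09 for 18 to 24 and 0.36 for 24 against 3 months, Cyp2s1 to 0.12 and Cyp4f39 to 0.26 for 24 against 3 months. All 3 genes were near background; the cause was not tested. Quantile normalization, the authors' table, averaging the probes of a gene, testing probes singly and keeping only probes above background everywhere moved no count by more than 1.5 times, though single calls such as the Cyp2c6v1 step from 18 to 24 months were lost under the first 2 of these. With 3 or 4 arrays an age, and signals near background for 6 of the 48 genes, smaller differences may have been missed.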
